A study of Homo sapiens with 4 samples.

Results

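The genes described here are the transcriptional coactivators YAP1 and WWTR1 (TAZ), their DNA-binding partners TEAD1 and TEAD4, and 6 genes known as targets or regulators of the same pathway, CTGF, CYR61, ANKRD1, AMOTL2, LATS2 and AJUBA. They were taken by gene name, and all 10 were found, each with 1 entry, among the 58302 genes of the files. The samples were HepG2 cells, a human hepatocellular carcinoma line labelled wild type, which were exposed either to 1 mM melatonin or to the solvent DMSO and harvested after 24 h or after 48 h. A single mRNA-seq library was made for each of the 4 conditions, so the spread between cultures is unknown and no difference carries a p-value. How densely the cells stood at harvest, to which these genes are known to respond, is not given in the sources used here. Levels are given as FPKM, read fragments divided by the length of the gene and by the size of the library, from which the underlying reads could be worked out.

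YAP and TAZ shuttle between cytoplasm and nucleus. When the Hippo kinases are active, as in crowded cells, LATS1 and LATS2 phosphorylate YAP and TAZ, which then stay out of the nucleus or are degraded. Unphosphorylated YAP and TAZ enter the nucleus, bind TEAD factors on DNA and switch on a set of genes that includes their own inhibitors. In the liver this pathway is known for its control of organ size and for its role in hepatocellular carcinoma.

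TEAD factors recognise the letters GGAATG. These were searched on both strands in the RefSeq promoter windows of build GRCh38.p14, which run from 250 bases before a transcription start to 50 bases after it. A window was found for 7 of the 10 genes, and 3 of these genes have 2 windows. The entries missing from the table were those of CYR61, TEAD1 and TEAD4. Of 34943 windows of all genes, 14.0% held the motif at least once, 1.37% at least 2 times and 0.126% at least 3 times. The promoter of CTGF held it 3 times and that of ANKRD1 held it 2 times. Both are printed here because these 2 genes went in opposite directions with melatonin. They are the 250 bases before the start, 5′ to 3′ on the minus strand, with the TEAD motif in capitals, at chr6:131951373-131951622 for CTGF and chr10:90921088-90921337 for ANKRD1, and neither overlaps an exon of GENCODE 44.
CTGF: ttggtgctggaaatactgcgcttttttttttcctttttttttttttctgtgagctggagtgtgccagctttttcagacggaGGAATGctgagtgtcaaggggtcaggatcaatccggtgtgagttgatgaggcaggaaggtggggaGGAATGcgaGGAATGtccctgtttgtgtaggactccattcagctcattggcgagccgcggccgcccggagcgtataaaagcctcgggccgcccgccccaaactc
ANKRD1: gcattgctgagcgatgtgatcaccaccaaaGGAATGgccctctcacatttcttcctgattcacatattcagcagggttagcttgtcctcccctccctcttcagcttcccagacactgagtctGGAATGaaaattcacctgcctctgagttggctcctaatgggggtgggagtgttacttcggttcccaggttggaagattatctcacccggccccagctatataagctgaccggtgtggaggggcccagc

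Counted from the start, the motifs of CTGF began at -169, -104 and -95, so that the last 2 were 3 bases apart, and those of ANKRD1 began at -220 and -128. The motif occurred once in 4 further genes. These sites are printed with 12 bases on each side because AMOTL2 and AJUBA were the other genes with large differences. For AMOTL2 the letters are on the opposite strand and read CATTCC. The sites of AMOTL2 and AJUBA (chr3:134374499-134374528 and chr14:22976884-22976913, minus strand) precede the second of their 2 windows' starts, at -69 and -59. That of YAP1 (chr11:102110273-102110302, plus strand) begins at -162, and that of LATS2 (chr13:21061560-21061589, minus strand) begins at position 10, counting the start as 1. The motifs of AMOTL2, AJUBA and YAP1 overlap an exon annotated in GENCODE 44. That of LATS2, which lies after its start, was not compared with exons.
AMOTL2: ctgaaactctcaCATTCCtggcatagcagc
AJUBA: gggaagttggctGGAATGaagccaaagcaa
LATS2: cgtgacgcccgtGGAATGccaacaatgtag
YAP1: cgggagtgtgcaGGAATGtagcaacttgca

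The AP-1 motif TGANTCA, which often accompanies TEAD sites, was found in 7.72% of all windows and, among these genes, in that of ANKRD1 alone. The CArG box of serum response factor (SRF) was found in 1.30% of all windows and in none of these. A match of letters is a description of the sequence and does not show that a factor was bound.

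**Figure D1:**
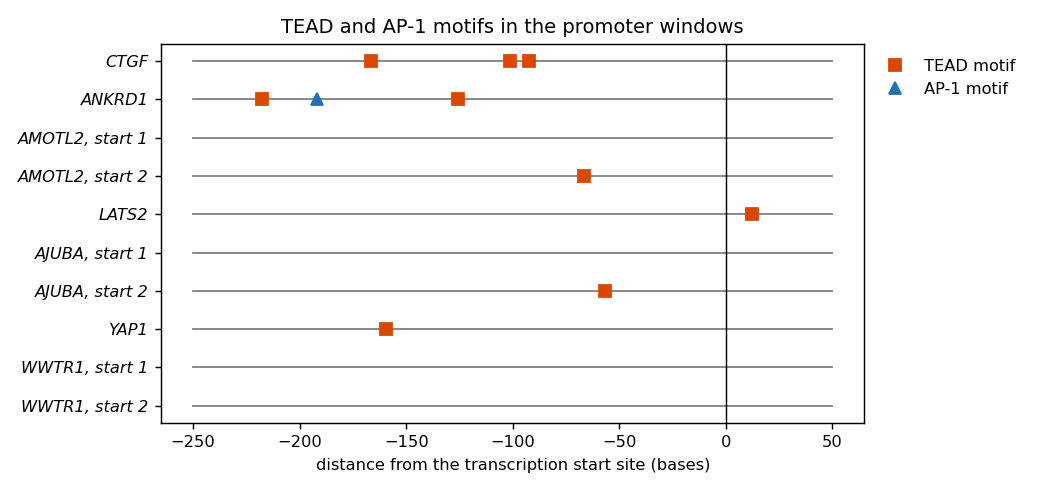
Positions of the TEAD motif (squares) and the AP-1 motif (triangle) in the promoter windows, in bases from the transcription start site. The 3 squares of CTGF and the 2 of ANKRD1 lie before the start, and both WWTR1 windows are empty.

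The libraries held between 21616676 and 23086025 reads on genes, of which 9.77% to 20.0% were mitochondrial. All 8 hepatocyte markers looked up (ALB, AFP, APOA1, TTR, SERPINA1, HNF4A, TF and FGB) were present, with a summed FPKM of 6423 to 8069 per library. CTGF, CYR61 and ANKRD1 are strong genes of fibroblasts, so markers of other cells were read as well. Of 5 fibroblast markers, COL3A1 and DCN had no read in any library, LUM had at most 1 and COL1A1 at most 14, and the summed FPKM of the list, almost all of it PDGFRB, was 0.804 to 4.33. The summed FPKM of 4 endothelial markers was 0.543 to 1.18 and that of 4 leukocyte markers 0.285 to 1.15. In bulk RNA, fewer cells that express a gene and less RNA per cell cannot be told apart.

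CTGF and CYR61 encode secreted matricellular proteins of the same CCN family and are the most widely used readouts of YAP activity. CTGF (chromosome 6 of hg38 from 131948176 to 131951373) stood at 83.2 FPKM in the DMSO library and 96.1 in the melatonin library of 24 h, and at 116 and 201 in those of 48 h, from 3574 to 10417 reads. It was the highest of the 10 genes in every library, and its level was higher with melatonin at both times. CYR61 (chromosome 1 from 85580761 to 85583962) stood at 11.2 and 7.09 FPKM at 24 h and at 12.9 and 8.60 at 48 h, DMSO first, from 353 to 696 reads. Both melatonin libraries were below both DMSO libraries, whereas CTGF was higher with melatonin within each time. The other 4 members of the CCN family (NOV, WISP1, WISP2 and WISP3) had at most 2 reads in any library.

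ANKRD1 encodes an ankyrin repeat protein of the nucleus and the muscle sarcomere. Its gene (chromosome 10 from 90912096 to 90921276) stood at 12.5 FPKM in the DMSO library and 5.66 in the melatonin library of 24 h, and at 13.2 and 5.30 in those of 48 h, from 227 to 575 reads. The DMSO libraries lay close together, and so did the melatonin libraries at less than 0.5 of that level.

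Among the regulators, AMOTL2 encodes a junctional protein that holds YAP in the cytoplasm, LATS2 is the kinase that phosphorylates YAP, and AJUBA is a LIM protein of adherens junctions that binds LATS kinases and restrains them. AMOTL2 (chromosome 3 from 134355874 to 134375479) stood at 5.98 (DMSO) and 3.79 FPKM (melatonin) at 24 h, then at 10.0 and 4.63 at 48 h. LATS2 (chromosome 13 from 20973032 to 21061547) stood at 6.44 and 6.98 FPKM at 24 h, then at 10.6 and 7.81 at 48 h, DMSO first. For both genes the DMSO library of 48 h stood above the other libraries. AJUBA (chromosome 14 from 22971174 to 22982642) stood at 61.4 (DMSO) and 25.9 FPKM (melatonin) at 24 h, then at 86.0 and 27.8 at 48 h, from 3145 to 11277 reads. It was second to CTGF in the DMSO libraries, and its melatonin libraries were less than 0.5 of either DMSO library.

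Of the coactivators, YAP1 varied least among the 10 genes, with a highest level 1.30-fold above its lowest, and WWTR1 varied 1.93-fold. YAP1 (chromosome 11 from 102110461 to 102233423) stood at 42.5 (DMSO) and 39.1 FPKM (melatonin) at 24 h, then at 50.8 and 42.0 at 48 h. WWTR1 (chromosome 3 from 149517235 to 149736714) stood at 7.65 and 7.25 FPKM at 24 h, then at 11.8 and 14.0 at 48 h. YAP1 was thus the more abundant coactivator throughout, and the melatonin library of 48 h had the highest WWTR1. TEAD1 (chromosome 11 from 12674591 to 12944483) stood at 6.65 and 7.42 FPKM at 24 h, then at 6.61 and 8.98 at 48 h. TEAD4 (chromosome 12 from 2959330 to 3040673) stood at 27.0 and 31.0 FPKM at 24 h, then at 31.3 and 23.8 at 48 h. TEAD4 supplied the largest share of the summed FPKM of the 4 TEAD genes, from 44.5% to 54.6% per library, and TEAD1 supplied 10.3% to 16.8%. Other genes of the files overlap 7 of the 10 genes, and none of these overlapping genes held more than 9 reads in a library.

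**Figure D2:**
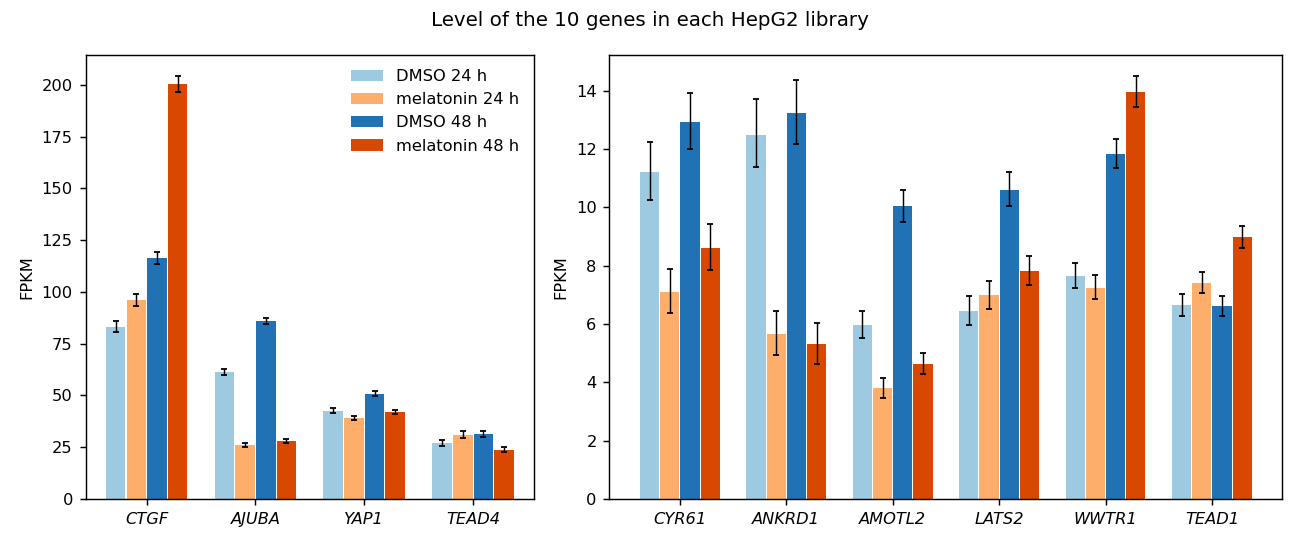
FPKM of the 10 genes in the 4 libraries. Bars are single libraries and error bars are 95% exact Poisson intervals of the reads, which cover counting error only. The panels have separate axes that start at 0. AJUBA and ANKRD1 are lower in both melatonin libraries, and CTGF is highest in the melatonin library of 48 h.

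To see which of these genes differed after melatonin, each melatonin library was compared with the DMSO library of its time. Genes that reached 1 FPKM in at least 1 of the libraries compared were read on a log2 scale after adding 1 to each FPKM, and counted as changed from a 2-fold difference on that scale, which understates the change of low genes. Plain FPKM ratios are given beside it with 95% exact binomial intervals of the reads. All intervals cover counting error only, and reads without molecular identifiers are not independent molecules. Whether an interval excludes 1 depends on the number of reads. The shares of all tested genes given beside such counts include genes with few reads and are not matched to the 10 genes. All 10 genes passed the minimum in every comparison.

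At 24 h, AJUBA and ANKRD1 fell at least 2-fold with melatonin and none of the 10 genes rose as far. Among the 13582 genes tested, 2.93% fell and 1.42% rose at least 2-fold, and among those with at least 50 reads 0.653% fell. AJUBA was 2.37-fold lower with melatonin, at a ratio of 0.423 (0.405 to 0.441) and a log2 fold change of -1.21, and 1.69% of all tested genes had a lower value. ANKRD1 had a ratio of 0.453 (0.384 to 0.532) and a log2 fold change of -1.02, close to the threshold, and its value became -0.92 after rescaling to TPM. CYR61 had a ratio of 0.633 (0.551 to 0.726) and AMOTL2 one of 0.634 (0.561 to 0.715). For each of these 4 genes the whole interval lay below 1, as did that of YAP1 with a smaller difference.

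The remaining genes were close to 1 at 24 h. CTGF had a ratio of 1.15 (1.10 to 1.21), TEAD4 one of 1.15 (1.06 to 1.24) and TEAD1 one of 1.12 (1.04 to 1.20). The ratio of LATS2 was 1.08 (0.977 to 1.21), that of YAP1 was 0.919 (0.884 to 0.956) and that of WWTR1 was 0.947 (0.874 to 1.03). For LATS2 and WWTR1 the interval held 1, so no difference was detectable at this depth. YAP1 and WWTR1 changed sign after rescaling to TPM, to log2 fold changes of 0.05 and 0.09. The interval lay above 1 for 3 of the 10 genes and below 1 for 5, against 28.2% and 22.4% of all tested genes.

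At 48 h, AJUBA and ANKRD1 again fell at least 2-fold with melatonin and none of the 10 genes rose as far. Of the 13805 genes tested, 3.32% fell and 2.39% rose at least 2-fold, and among those with at least 50 reads 1.89% fell. AJUBA had a ratio of 0.323 (0.311 to 0.336), 3.09-fold lower with melatonin, and 0.652% of the tested genes had a lower log2 fold change than its -1.59. ANKRD1 had a ratio of 0.400 (0.342 to 0.467) and a log2 fold change of -1.18. AMOTL2 had a ratio of 0.461 (0.418 to 0.508), and its log2 fold change of -0.97 stayed just short of the threshold, which it passed with a pseudocount of 0.1 (-1.10) and after rescaling to TPM (-1.11). The intervals of AJUBA and AMOTL2 at 48 h lay below those of 24 h, whereas those of ANKRD1 overlapped.

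CTGF stood on the other side. At 48 h its ratio was 1.73 (1.67 to 1.78), and 95.5% of the tested genes had a lower log2 fold change than its 0.78. TEAD1 had a ratio of 1.36 (1.27 to 1.45) and WWTR1 one of 1.18 (1.11 to 1.25). CYR61, LATS2, TEAD4 and YAP1 were lower with melatonin, at ratios of 0.666 (0.591 to 0.749), 0.736 (0.677 to 0.801), 0.762 (0.706 to 0.822) and 0.827 (0.799 to 0.856). Of the coactivators, 1 gene was thus higher and the other lower, and the same held for TEAD1 and TEAD4. TEAD2 and TEAD3, the other TEAD genes, were lower with melatonin, at ratios of 0.580 (0.493 to 0.682) and 0.844 (0.780 to 0.914). Among the 10 genes the interval was above 1 for 3 and below 1 for 7, against 29.1% and 33.1% of all genes. The median log2 fold change of the 10 genes was -0.39 at 48 h and -0.09 at 24 h, beside -0.02 and 0.02 for all tested genes.

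**Figure D3:**
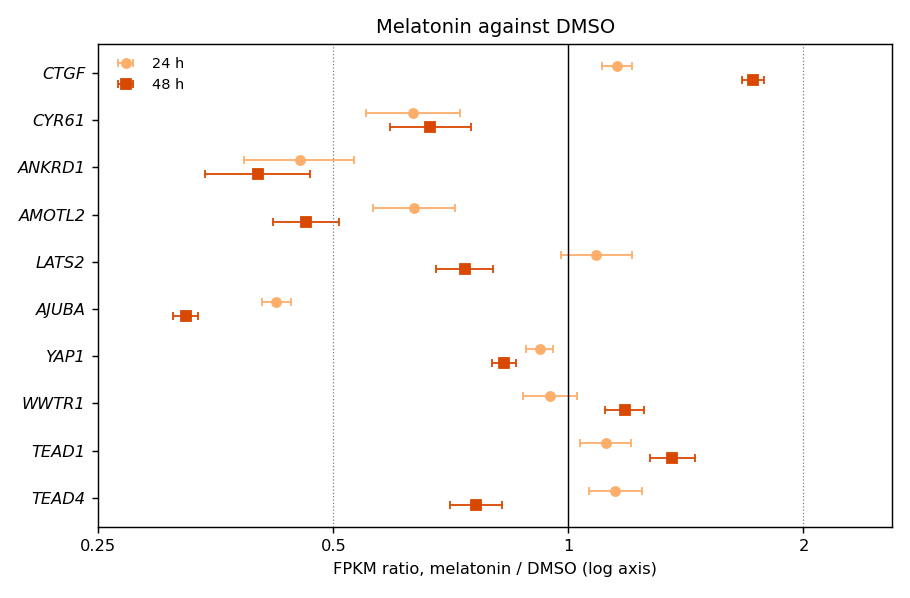
FPKM ratio of melatonin over DMSO for the 10 genes at 24 h (circles) and 48 h (squares), on a log axis. Bars are 95% exact binomial intervals of the reads (counting error only), the solid line marks a ratio of 1 and the dotted lines mark 2-fold. AJUBA and ANKRD1 lie left of the lower dotted line at both times, AMOTL2 does so at 48 h, and CTGF lies right of 1 at both.

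Ratios between genes of the same library do not depend on how the library was scaled. CTGF exceeded CYR61 7.43-fold (6.77 to 8.17) in the DMSO library and 13.6-fold (12.2 to 15.1) in the melatonin library of 24 h, and 8.99-fold (8.31 to 9.74) and 23.3-fold (21.3 to 25.6) in those of 48 h. The 2 readouts therefore lay further apart with melatonin at either time, with intervals that did not overlap. Against ANKRD1, CTGF went from 6.66-fold with DMSO to 17.0-fold with melatonin at 24 h, and from 8.78-fold to 37.8-fold at 48 h. YAP1 exceeded WWTR1 5.55-fold with DMSO and 5.39-fold with melatonin at 24 h, with overlapping intervals of 5.21 to 5.92 and 5.06 to 5.74. At 48 h it did so 4.29-fold (4.09 to 4.51) and 3.01-fold (2.87 to 3.15), so that the share of WWTR1 was largest in the melatonin library of 48 h.

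Since these genes are known to respond to cell density and cultures grow denser with time, the libraries of 48 h were also compared with those of 24 h. These comparisons use the same 4 libraries as those above and are not independent of them. With DMSO, none of the 10 genes passed 2-fold in either direction, where 3.5% of 13854 tested genes rose and 4.24% fell. AMOTL2 had the largest ratio at 1.68 (1.53 to 1.85), followed by LATS2 at 1.65 (1.499 to 1.81), WWTR1 at 1.55 (1.44 to 1.66), AJUBA at 1.40 (1.36 to 1.44) and CTGF at 1.40 (1.34 to 1.46). YAP1, TEAD4 and CYR61 were higher by smaller factors, of 1.20, 1.16 and 1.15, while the intervals of ANKRD1 (0.936 to 1.20) and TEAD1 (0.921 to 1.07) held 1. The interval was above 1 for 8 of the 10 genes and below 1 for none, against 32.5% and 32.1% of all genes. The shares of all genes include genes with few reads and wide intervals. AMOTL2 and LATS2, which are known to restrain YAP, had the largest ratios, but their intervals overlapped that of the coactivator WWTR1.

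The median log2 fold change of the 10 genes in this comparison was 0.36, against 0.00 for all tested genes. Rescaling to TPM moved the median of all genes to 0.46, and that of the 10 genes to 0.87, so that their distance from all genes went from 0.36 to 0.41. TPM also moved the median of all genes from 0.02 to 0.17 for melatonin at 24 h and from -0.04 to 0.23 for 48 h over 24 h with melatonin. On the TPM scale AMOTL2, LATS2 and WWTR1 passed 2-fold with DMSO, and TEAD1 turned from -0.01 to 0.47. Of all genes past 2-fold, the share that was higher went from 32.7% to 45.8% for melatonin at 24 h, from 45.2% to 80.7% over time with DMSO and from 58.9% to 72.9% over time with melatonin. The mitochondrial share of reads went from 20.0% to 9.77% between these libraries, and its part in the TPM values was not tested.

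With melatonin, CTGF rose from 24 h to 48 h at a ratio of 2.09 (2.02 to 2.16) and a log2 fold change of 1.05, and was alone among the 10 genes in passing 2-fold. Of the 13489 tested genes 2.45% rose and 1.71% fell at least 2-fold. WWTR1 came next at 1.93 (1.80 to 2.06), and it passed 2-fold on the TPM scale. AMOTL2, LATS2 and AJUBA had ratios of 1.22 (1.08 to 1.38), 1.12 (1.02 to 1.23) and 1.07 (1.02 to 1.12), each with an interval below that of the DMSO libraries. TEAD4 was lower at 48 h, at a ratio of 0.770 (0.712 to 0.831), where it had been higher with DMSO. The interval was above 1 for 8 genes and below 1 for 1, against 22.4% and 32.8% of all genes.

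**Figure D4:**
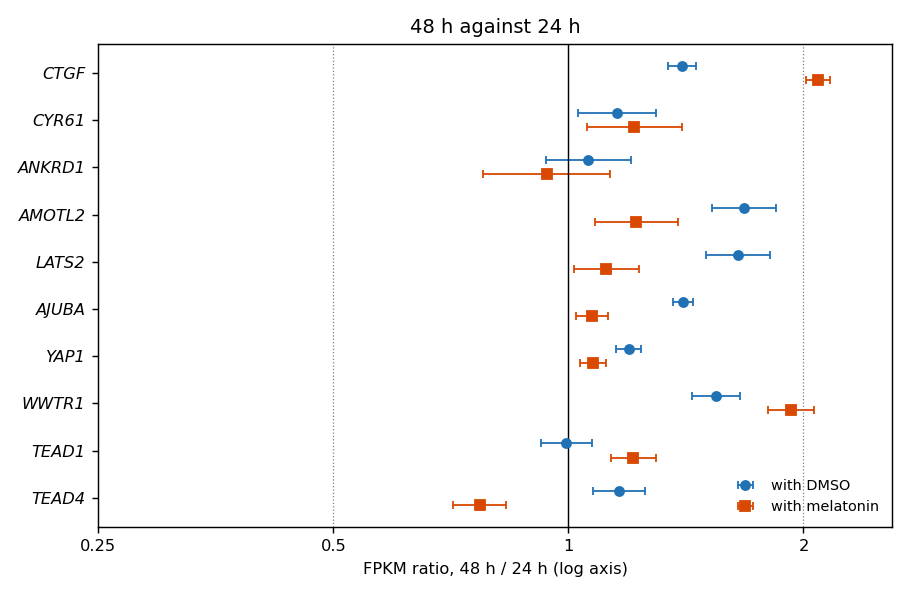
FPKM ratio of 48 h over 24 h for the 10 genes with DMSO (circles) and with melatonin (squares), on a log axis, with 95% exact binomial intervals of the reads (counting error only). The solid line marks 1 and the dotted lines 2-fold. CTGF is the only gene beyond 2-fold, and AMOTL2, LATS2 and AJUBA have larger ratios with DMSO than with melatonin.

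The genes whose pattern over the 4 libraries lay nearest to the 2 CCN genes were looked up by Euclidean distance of centred log2(FPKM + 1) values among 11350 genes with at least 50 reads in each library. Nearest to CTGF were FNIP2, CPVL and SDC3, at distances of 0.076, 0.18 and 0.20. FNIP2 stood at 3.43 (DMSO) and 3.82 FPKM (melatonin) at 24 h, then at 4.81 and 8.96 at 48 h. Nearest to CYR61 were MALT1, LCAT and UNC13D, at distances of 0.039, 0.080 and 0.082, and MALT1 stood at 6.46 and 3.88 FPKM at 24 h, then at 7.63 and 5.00 at 48 h. With 4 libraries, such nearness is a description of these profiles only.

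To see whether further targets of YAP and TEAD moved with these genes, 17 other genes known as their targets were read. Of these, 12 were tested at each melatonin comparison. At 24 h none passed 2-fold, where 1.42% of all tested genes rose and 2.93% fell. The median log2 fold change of the 12 was -0.09. At 48 h, IGFBP3 and FJX1 rose and none fell at least 2-fold, with a median of -0.17. Of all tested genes 2.39% rose and 3.32% fell that far at 48 h. IGFBP3, which binds insulin-like growth factors, stood at 3.12 (DMSO) and 4.53 FPKM (melatonin) at 24 h, then at 2.93 and 11.2 at 48 h, and it also rose over time with melatonin, at a log2 fold change of 1.14. FJX1, a secreted regulator of cell polarity, stood at 0.889 and 1.71, then at 1.06 and 3.36. In both genes the melatonin library of 48 h was the highest of the 4. They were named for rising at least 2-fold at 48 h, which favours such a pattern. Of the 12 targets tested at 48 h, 4 had a log2 fold change above 0 and 8 below.

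Other targets had lower values with melatonin at 48 h. GADD45A, a stress sensor, stood at 17.4 and 16.9 FPKM at 24 h, then at 40.4 and 22.1 at 48 h, DMSO first. NT5E, which makes adenosine outside the cell, stood at 7.61 and 6.72, then at 25.6 and 13.4. Both were named for rising at least 2-fold from 24 h to 48 h with DMSO. In both the DMSO library of 48 h was the highest, a pattern that this choice favours. CRIM1, the most abundant of these targets, had a ratio of 1.03 (0.990 to 1.08) at 24 h and of 0.880 (0.850 to 0.911) at 48 h.

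A list of 31 other Hippo pathway genes was read, which holds kinases and scaffolds upstream of YAP as well as TEAD2, TEAD3 and the VGLL cofactors of TEAD, and shares PTPN14 with the list of targets. Of the 31, 23 passed the minimum in each comparison. None of them passed 2-fold in any of the 4 comparisons. Of all tested genes, 1.42% to 3.5% rose and 1.71% to 4.24% fell that far per comparison. At such shares few or no genes of a list of 23 would pass. The median log2 fold change of the 23 with melatonin was -0.02 at 24 h and -0.11 at 48 h. MAP4K4, a kinase that activates LATS, was the most abundant, at 75.0 (DMSO) and 95.8 FPKM (melatonin) at 24 h, then at 71.0 and 79.9 at 48 h. The log2 fold change furthest from 0 at 48 h was the -0.73 of CSNK1D, a kinase that marks YAP for degradation, at a ratio of 0.590 (0.568 to 0.613). LATS1 had a ratio of 0.844 (0.763 to 0.934) at 24 h and 0.724 (0.663 to 0.790) at 48 h, the latter close to that of LATS2. CSNK1D and LATS1 were named after their values were seen. The cofactor genes VGLL1 and VGLL2 had no read.

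AP-1 factors bind beside TEAD at many enhancers. Of 8 AP-1 genes 7 were tested, and at 48 h FOSL1 fell with a ratio of 0.435 (0.360 to 0.525), from 8.94 to 3.89 FPKM, while none passed 2-fold at 24 h. On the scale of the plain sum of reads FOSL1 did not pass. JUND, the most abundant, stood at 49.9 and 64.0, then at 56.5 and 67.0. The median of the list was -0.09 at 24 h and -0.35 at 48 h, beside 0.02 and -0.02 for all tested genes.

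SRF and its cofactor MRTF, which respond to actin, share targets with YAP, CYR61 and CTGF among them. Of 11 genes of the SRF list 10 were tested. TAGLN, an actin-binding protein, fell at both times, with 4.13 (DMSO) and 1.25 FPKM (melatonin) at 24 h, then 7.01 and 2.20 at 48 h, while VCL (vinculin), which anchors actin at junctions, rose at 48 h from 4.91 to 11.3. In VCL the DMSO library of 48 h was the low one of the 4, at 0.513 (0.475 to 0.554) of the DMSO library of 24 h. ACTG1, the most abundant gene of the list, had ratios of 1.22 and 1.16.

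Genes of dividing cells were read in the same libraries. Of 8 proliferation genes, 6 fell at least 2-fold from 24 h to 48 h with DMSO (MKI67, TOP2A, CCNB1, CCNA2, BIRC5 and MCM2) and the median log2 fold change was -1.52. With melatonin the median of the 8 over time was -0.66 and none passed 2-fold. Of all tested genes, 4.24% fell at least 2-fold over time with DMSO and 1.71% with melatonin. MKI67 stood at 30.6 (DMSO) and 29.3 FPKM (melatonin) at 24 h, then at 8.68 and 15.2 at 48 h, while PCNA, the most abundant by its mean over the libraries, stood at 96.3 and 93.8, then at 59.8 and 97.5. All 8 were higher with melatonin than with DMSO at 48 h, by a median log2 fold change of 0.70. The median of all tested genes was -0.02 there, and 3 of the 10 YAP and TEAD genes were higher and 7 lower. At 24 h, 3 of the 8 proliferation genes were higher with melatonin and 5 lower, with a median of -0.05. The part of proliferation or density in these values was not tested.

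**Figure D5:**
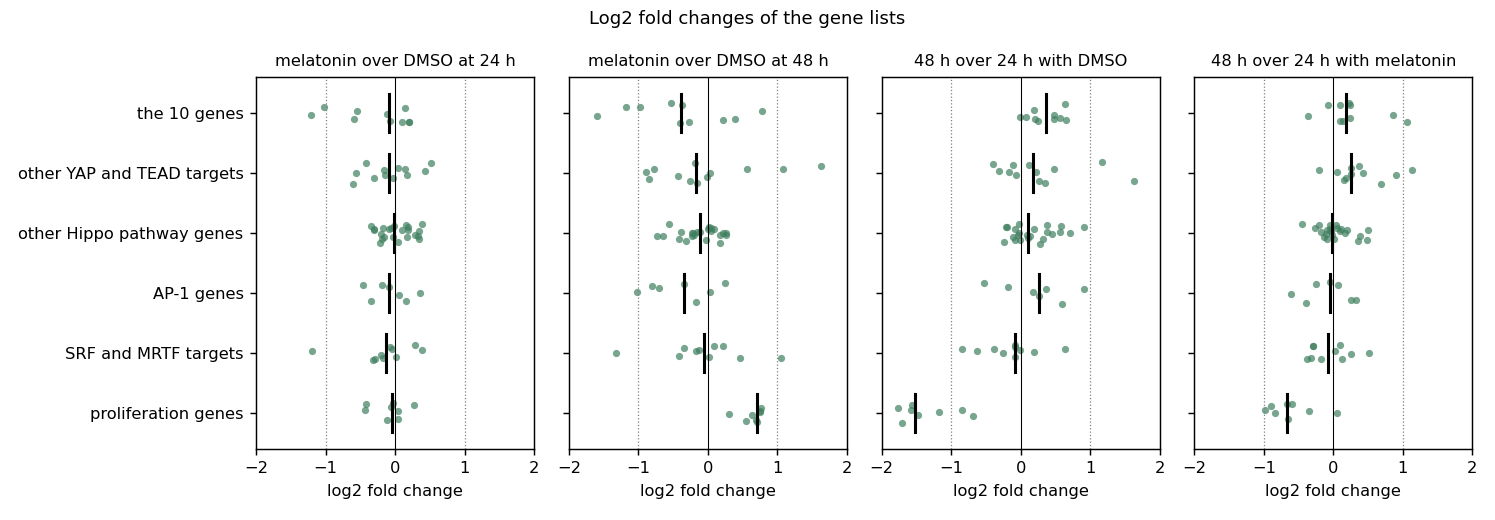
Log2 fold changes on the log2(FPKM + 1) scale of the tested genes of each list in the 4 comparisons. Points are genes, spread vertically for legibility, black bars are list medians and dotted lines mark 2-fold. With DMSO the proliferation genes sit far below 0 over time (median -1.52), where 9 of the 10 genes are above 0 (median 0.36).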

How the data were processed

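HepG2 mRNA-seq libraries were compared, 1 per condition. Per the study's methods, poly(A) RNA was sequenced in pairs, reads were mapped to hg38 with MapSplice, and expression was taken with Cufflinks. The submitters' processing notes name Bowtie2 2.0.6, TopHat2 2.0.9, Cufflinks 2.1.1 and Cuffdiff 2.1.1, and strand is not stated. The authors deposited FPKM and a gene length, without counts. In each library 1 read was worth a fixed amount of FPKM multiplied by gene length, and 100% of values above 0 came out as whole reads (tolerance 0.01 reads), which gave the reads. Cufflinks does not usually yield whole reads, so how the FPKM were made is uncertain, and every interval treats these units as reads. The library size implied by that step was 0.849 to 0.973 of the reads on genes. Ratios use that size, a pseudocount of 1 and a minimum FPKM of 1. Reads of 3 or fewer were read as the floor.

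The genes and lists were chosen with earlier results of these data known. Named were the 10 genes, listed genes that passed 2-fold, the most abundant gene of each list and the nearest patterns; the pairs of genes set against each other were chosen after their values were seen. Scripts were tested on simulated data. Python 3.11, numpy 2.4.6, pandas 2.3.3, scipy 1.17.1 and matplotlib 3.10.9 were used. Promoters are from RefSeq (GRCh38.p14, the same assembly as hg38).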

Additional observations from a re-analysis of the deposited data

Results flagged for a closer look

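The 77 listed genes that were tested in all 4 comparisons, the 10 genes and the marker lists included, were searched for ratios whose counting intervals lay on opposite sides of 1. With 1 library per condition, none of these differences between times or treatments was tested. The ratios are on the FPKM scale, and their sides of 1 were not read after rescaling to TPM. At 24 h that rescaling moved the median log2 fold change of all tested genes from 0.02 to 0.17. Over time it moved the median from 0.00 to 0.46 with DMSO and from -0.04 to 0.23 with melatonin. Ratios near 1 may therefore change side.

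For melatonin over DMSO, 11 of the 77 genes had opposite directions at 24 h and 48 h. The search was not run over all genes, so this count has no background share. Of all tested genes, 28.2% had an interval above 1 and 22.4% below at 24 h, and 29.1% and 33.1% at 48 h. TEAD4 was the only one of the 10 genes among the 11, with 1.15 at 24 h and 0.762 at 48 h. Of the other pathway genes and targets, VGLL4 had 1.27 and 0.83, and ASAP1 had 1.15 and 0.818. The proliferation genes went the other way, MKI67 from 0.96 to 1.75, BIRC5 from 0.917 to 1.68, CCNB1 from 0.744 to 1.24 and MCM2 from 0.736 to 1.73. Among the cell type markers, PDGFRB went from 0.428 to 1.21, HNF4A from 0.903 to 1.26, ALB from 1.08 to 0.985 and APOA1 from 1.07 to 0.709.

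For 48 h over 24 h, from the same 4 libraries, 9 of the 77 genes had opposite directions with DMSO and with melatonin. This count has no background share either. Of all tested genes, 32.5% had an interval above 1 and 32.1% below with DMSO, and 22.4% and 32.8% with melatonin. TEAD4 had 1.16 with DMSO and 0.77 with melatonin. VGLL4 had 1.37 and 0.895, ASAP1 had 1.19 and 0.849, FAT1 had 1.1 and 0.924, and DOCK5 had 0.881 and 1.22. JUN had 0.878 and 1.26 and JUNB had 1.32 and 0.733, while AFP had 1.68 and 0.794 and TF had 1.26 and 0.71.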

How the results depend on the processing

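The 8 alternatives were run for the counts and the 40 fold changes of the 10 genes, and, chosen after seeing the data, for the other lists. Of 319 values for the 10 genes under an alternative, 285 moved by less than the counting interval and 4 changed sign, all on the TPM scale and none in a comparison where that gene was counted as changed. Settings that alter only the minimum FPKM, the minimum reads or the fold threshold leave the fold changes as they are. Values under those settings could not move, so the 285 overstate how stable the fold changes were. Rescaled to TPM, the number changed among the 10 genes was 1 with melatonin at 24 h, 3 over time with DMSO and 2 over time with melatonin. Of all tested genes, 4.22% rose and 4.99% fell at least 2-fold on that scale at 24 h. Over time the shares were 16.4% and 3.91% with DMSO, and 8.58% and 3.19% with melatonin. With a 1.5-fold threshold the number changed among the 10 genes was 4 at 48 h, and 2 over time with either treatment. Of all tested genes, 8.62% rose and 10.0% fell that far at 48 h. The shares over time were 11.2% and 12.6% with DMSO, and 6.76% and 6.05% with melatonin.

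For the other lists the following counts moved by over 1.5 times. On the TPM scale they were 2 AP-1 genes at 48 h, 4 Hippo, 2 AP-1 and 1 SRF gene over time with DMSO, and 3 other targets over time with melatonin. A 1.5-fold threshold gave 1 other target and 1 CCN gene at 24 h. At 48 h it gave 5 other targets, 2 Hippo, 3 AP-1, 1 CCN and 6 proliferation genes. Over time it gave 2 Hippo, 2 AP-1 and 3 SRF genes with DMSO, and 3 other targets, 1 AP-1 and 6 proliferation genes with melatonin. A pseudocount of 0.1 gave 2 AP-1 genes at 48 h, 1 over time with DMSO, and 1 proliferation gene over time with melatonin. A minimum FPKM of 5 left 0 SRF genes at 24 h and 1 other target at 48 h, and the plain sum of reads without mitochondrial genes left 0 AP-1 genes at 48 h. The shares of all tested genes given above for TPM and the 1.5-fold threshold are the background of these counts. For TPM at 48 h the shares were 5.95% higher and 7.59% lower, and for the 1.5-fold threshold at 24 h 4.02% and 7.53%. A pseudocount of 0.1 gave 5.48% and 6.64% at 48 h, and over time 7.10% and 7.90% with DMSO and 5.26% and 3.34% with melatonin. Over all tested genes, the number lower with melatonin was 398 at 24 h and 459 at 48 h, and ranged from 74 and 207 to 1023 and 1408 under the alternatives. The number higher was 193 and 330, and ranged from 24 and 117 to 715 and 1190. Over time 485 genes were higher and 587 lower with DMSO (222 to 2947 and 323 to 1746 under the alternatives), and 330 and 230 with melatonin (86 to 1520 and 52 to 816). A lower threshold counts more genes by construction, and for the other settings the cause was not tested.

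No paired analysis was possible because each condition has a single library. The reads limit single ratios by counting error only, and how far 2 cultures of the same condition would differ is not known from these data.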

Other observations

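Of the 8 hepatocyte markers used to check the cell line, TTR (transthyretin) and AFP (alpha-fetoprotein) passed 2-fold with melatonin at 48 h in opposite directions. Of all tested genes, 2.39% rose and 3.32% fell that far. TTR stood at 41.9 (DMSO) and 46.8 FPKM (melatonin) at 24 h, then at 50.6 and 256 at 48 h. Its melatonin library of 48 h thus stood apart from the other 3. AFP stood at 1131 and 985, then at 1902 and 782, with its highest value in the DMSO library of 48 h. TTR and AFP were named for passing 2-fold at 48 h, which favours such patterns.

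PDGFRB, a growth factor receptor on the fibroblast marker list, stood at 1.81 (DMSO) and 0.774 FPKM (melatonin) at 24 h, then at 3.58 and 4.33 at 48 h. Over time it rose with melatonin at a ratio of 5.59 (4.58 to 6.89), while COL3A1 and DCN had no read in any library.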
